A study of Rattus norvegicus with 10 samples.

Results

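The genes described here supply activated sulfate to the Golgi and transfer it to chondroitin and dermatan chains. They were chosen by symbol from a fixed list of 10: the sulfate transporter Slc26a2, the sulfate-activating enzymes Papss1 and Papss2, the Golgi carriers Slc35b2 and Slc35b3, the phosphatase Bpnt1 and the sulfotransferases Chst11, Chst12, Chst3 and Chst14. The table of 10184 genes held 9 of these symbols, and Chst3 was not analysed here. Of the 9, 8 passed the filter on low values and were tested, and Chst12 was below it.

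The samples were 5 libraries of ARSL knockout (ARSL KO) RCS cells and 5 libraries of wild-type (WT) RCS cells, labelled as biological replicates. RCS cells come from a chondrosarcoma of the rat and keep making the matrix of cartilage, and ARSL is arylsulfatase L, an enzyme of the family that removes sulfate groups. Both groups grew without treatment in DMEM with 10% fetal bovine serum, and RNA was taken 48 hours after seeding. The labels do not say whether the knockout cells are 1 clone or a pool, so an effect of the knockout and a difference between lines cannot be told apart, and p-values measure the spread between these cultures only.

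Cartilage owes its stiffness to the negative charge of sulfated chondroitin chains on aggrecan. Sulfate enters the cell through anion exchangers such as Slc26a2, and the PAPS synthases couple it to ATP in a pair of steps to give 3'-phosphoadenosine 5'-phosphosulfate (PAPS). Carriers move PAPS into the Golgi, where sulfotransferases pass the sulfate to the sugar chain and leave PAP, which phosphatases degrade. In humans, loss of SLC26A2, PAPSS2 or CHST3 causes skeletal dysplasias, and loss of CHST14 causes a form of Ehlers-Danlos syndrome.

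Among the 9 listed genes, Chst11 and Papss2 had KO values entirely above the WT values, a separation found in 1.86% of all tested genes. Papss1, the second PAPS synthase, overlapped with all libraries and separated once 3 libraries that stand apart were left out. In that smaller set 6.8% of all tested genes separated with KO above. The sequences just upstream of the RefSeq start of these 3 genes are shown so that they can be compared with each other. RefSeq, on the rat build GRCr8, gave such sequences for 9 of the 10 symbols, all but Chst14. They cover 250 bases before the annotated start, which need not be the start used in RCS cells, and they are read 5′ to 3′ on the gene's strand. The Chst11 sequence lies at chr7:22630442-22630691 on the minus strand, that of Papss2 at chr1:239867463-239867712 on the plus strand and that of Papss1 at chr2:222714180-222714429 on the plus strand. Capitals mark GC boxes, the letters GGGCGG on either strand.
Chst11: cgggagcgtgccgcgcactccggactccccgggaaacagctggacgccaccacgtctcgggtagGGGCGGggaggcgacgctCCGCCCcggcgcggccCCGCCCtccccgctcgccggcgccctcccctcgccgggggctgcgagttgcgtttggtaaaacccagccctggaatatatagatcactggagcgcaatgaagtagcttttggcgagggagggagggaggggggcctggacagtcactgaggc
Papss2: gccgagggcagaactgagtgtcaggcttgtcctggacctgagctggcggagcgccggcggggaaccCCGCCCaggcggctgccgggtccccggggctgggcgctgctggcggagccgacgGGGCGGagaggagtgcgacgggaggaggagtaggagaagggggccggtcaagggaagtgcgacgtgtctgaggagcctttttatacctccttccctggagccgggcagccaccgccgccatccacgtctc
Papss1: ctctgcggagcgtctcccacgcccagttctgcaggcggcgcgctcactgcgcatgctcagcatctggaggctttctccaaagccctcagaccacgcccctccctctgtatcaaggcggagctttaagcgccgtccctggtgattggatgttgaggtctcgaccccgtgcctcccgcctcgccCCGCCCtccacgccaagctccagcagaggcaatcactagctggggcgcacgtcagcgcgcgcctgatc

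Chst11 had 3 GC boxes in this window, Papss2 had 2 and Papss1 had 1, while Slc26a2, whose groups overlapped, also had 2. In all, 6 of the 9 matched sequences held at least 1 GC box, as did 30.5% of the 33469 sequences of the same length in the RefSeq table. Chst11 held 27 CpG dinucleotides, Papss2 held 23 and Papss1 held 22, against a median of 5 over all sequences. Slc26a2 and Bpnt1, whose groups overlapped, held 23 and 22. In all, 8 of the 9 matched sequences lay above that median, so a high count was not particular to the genes higher in KO. Chst12 stood at the other end, with 3 CpG dinucleotides and no GC box. TATAAA was found in Papss2 alone of the 9 (12.9% of all sequences), and CCAAT in Slc26a2, Papss1 and Slc35b2 (34% of all sequences). CACGTG was found in Slc26a2 alone (5.59% of all). AACAAT, the core of SOX motifs (10.3% of all), and TGACGTCA (1.59% of all) had no match in the 9. All motifs were searched on both strands, none is contained in another, and a match describes letters, not a site in use.

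The libraries held 2065594 to 2591819 reads over the listed genes, and the first principal component, with 51.1% of the variance, set WT 3 (28), WT 4 (26.8) and ARSL KO 4 (7.91) apart from the other 7 libraries (-15 to -2.96). Of 11 chondrocyte markers 10 were listed, with summed normalised reads of 39600 to 54080 in KO and 40750 to 70380 in WT, where WT 3 (70380) and WT 4 (69800) stood above all others; Sox9 was not among the listed symbols. Of 7 fibroblast markers 2 were listed, Thy1 and Pdgfra, with a sum of 16.6 to 41 in KO and 12.2 to 49.2 in WT, and Col1a1, Col1a2, Col3a1, Dcn and Lum were not. The 8 markers of dividing cells summed to 5575 to 6523 in KO and 4063 to 6852 in WT, with WT 3 at 4063 and WT 4 at 4447 the lowest. The 2 listed markers of 5 for hypertrophic chondrocytes, Alpl and Pth1r, summed to 654.9, 656, 564.1, 822.7 and 619.7 in ARSL KO 1 to 5, against 780.1 to 986.9 in WT, so that 4 of 5 KO libraries lay below every WT library. Alpl on its own had every KO library below every WT library, as 2.4% of all tested genes had, and Pth1r overlapped. How often a sum of other genes lies so was not computed. Neither gene passed at an adjusted p under 0.05 (limma adjusted p = 0.0566 for Alpl and 0.157 for Pth1r), and Col10a1, Mmp13 and Ihh were not listed. Of 7 osteoblast markers 3 were listed, with sums of 480.1 to 756.3 in KO and 515.8 to 955.1 in WT. The part of these markers in the results on the members was not tested. The ARSL gene was not found by symbol, so the genotype labels could not be checked on it. The effect of ARSL loss on gene expression is the one question the design poses.

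Chst11, which sulfates chondroitin at carbon 4 of N-acetylgalactosamine, was the 1 member called higher in KO at an adjusted p under 0.05. Its level was 525, 531.1, 651.8, 601.2 and 621.5 normalised reads in ARSL KO 1 to 5, against 430.6, 429.7, 376.4, 457.9 and 394.3 in WT 1 to 5. Normalised reads are corrected for library size but not for transcript length. Sums, shares and ratios of reads over several genes may thus reflect transcript length too, and are compared here between libraries only. Every KO library lay above every WT library, with ARSL KO 1 and WT 4 the closest pair. The means were 586.1 ± 56 in KO and 417.8 ± 32.3 in WT (SD, n = 5 each), a 1.4-fold level. On the deposited log2-like scale the difference was 0.45 (SE 0.0919, 95% interval 0.25 to 0.65; limma adjusted p = 0.027), which placed Chst11 69th by p among 8431 tested genes. In that comparison 1.14% of all tested genes were called at an adjusted p under 0.05, and 0.261% were called higher in KO. The 3 libraries that stand apart moved Chst11 little: without them the means were 582.4 ± 64 in KO (SD, n = 4) and 418.2 ± 20.7 in WT (SD, n = 3), with a difference of 0.44 (limma adjusted p = 0.00599), in a fit that called 3.56% of all tested genes. The call was lost on leaving out WT 3 (limma adjusted p = 0.0676), WT 5 (0.0709) or ARSL KO 2 (0.05), 3 (0.0969), 4 (0.056) or 5 (0.0977), while the difference stayed between 0.41 and 0.48 over all 10 such fits.

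**Figure D1:**
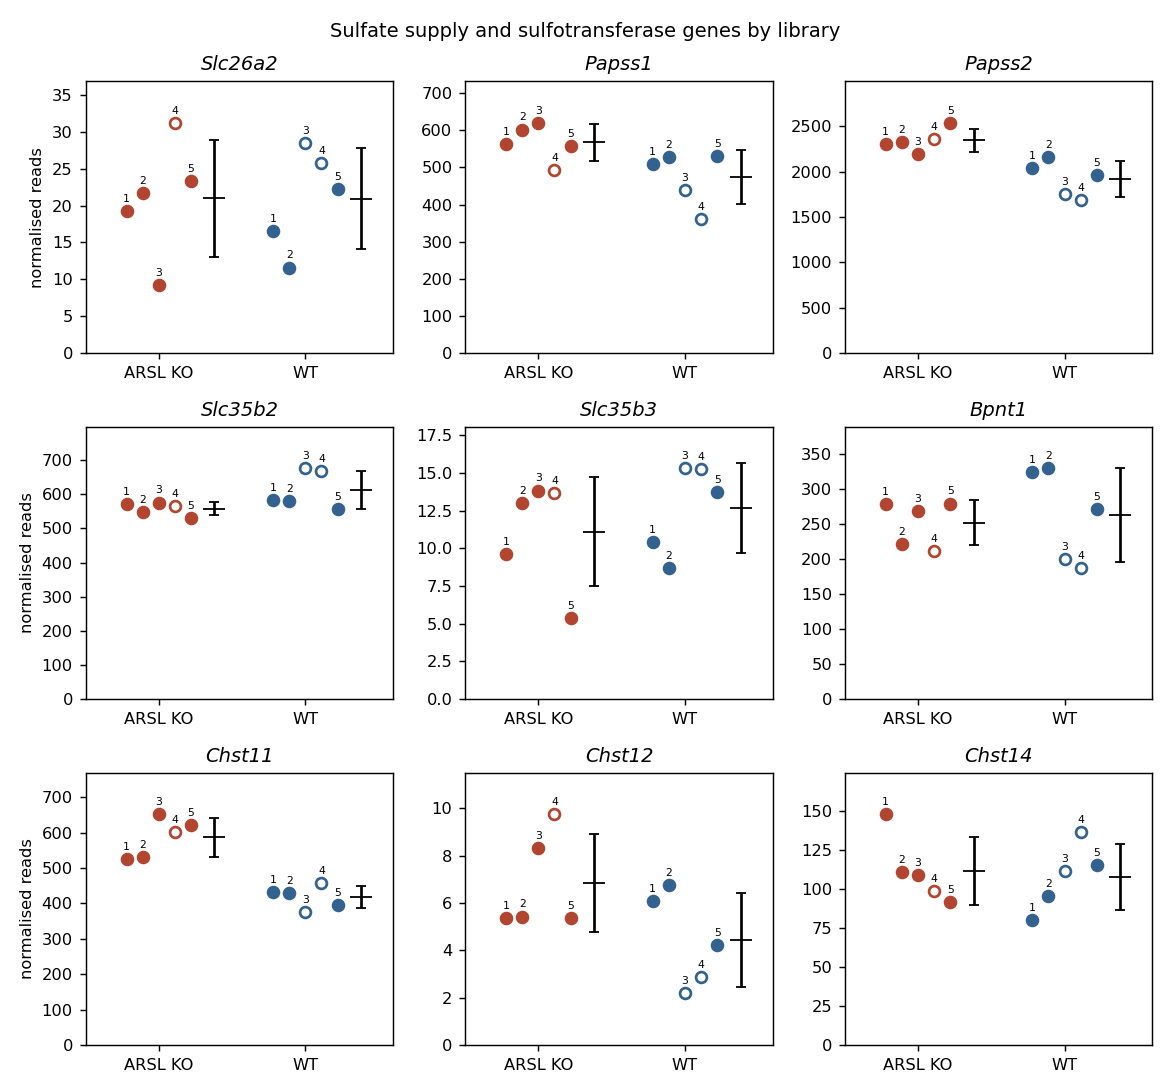
Normalised reads (vertical axis, from 0) of the 9 listed genes in ARSL KO and WT libraries; points are libraries with their replicate number, open points are WT 3, WT 4 and ARSL KO 4, and bars are the mean ± SD of 5 libraries. Chst11 and Papss2 show KO points entirely above the WT points, and the other 7 genes overlap.

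Chst12, the second chondroitin 4-O-sulfotransferase, was near the lower limit of the table. It had 5.37, 5.43, 8.31, 9.76 and 5.38 normalised reads in ARSL KO 1 to 5, against 6.1, 6.77, 2.19, 2.87 and 4.23 in WT 1 to 5. The groups overlapped, and the lowest values were those of WT 3 and WT 4. These levels rest on 2 to 10 reads per library, so counting error alone gives a coefficient of variation of 41.5%, against 30.1% in KO and 44.8% in WT as measured. The means were 6.85 ± 2.06 in KO and 4.43 ± 1.99 in WT (SD, n = 5 each), a 1.55-fold level. With no filter the difference was 0.16 (SE 0.113, 95% interval -0.08 to 0.40; limma adjusted p = 0.57).

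Chst14 sulfates the same carbon in dermatan, the form of the chain in which glucuronic acid has been turned into iduronic acid. It had 148.2, 110.8, 108.9, 98.6 and 91.5 normalised reads in ARSL KO 1 to 5, against 80.2, 95.8, 111.6, 136.7 and 115.2 in WT 1 to 5. The groups overlapped almost completely, and the highest value, in ARSL KO 1, stood beside 4 KO values no higher than 110.8. The difference was 0.04 (SE 0.126, 95% interval -0.23 to 0.31; limma adjusted p = 0.92).

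Papss2 is the main PAPS synthase of cartilage and Papss1 its widely expressed paralog; each joins an ATP sulfurylase and an APS kinase in 1 protein. Papss2 had 2299.6, 2329.8, 2197.2, 2355.8 and 2539.9 normalised reads in ARSL KO 1 to 5, against 2043.1, 2162.1, 1754.9, 1691.2 and 1958.7 in WT 1 to 5. The lowest KO library, ARSL KO 3, lay just above the highest WT library, WT 2, while WT 3 and WT 4 were the lowest of all. The means were 2345 ± 125 in KO and 1922 ± 197 in WT (SD, n = 5 each), a 1.22-fold level, with a difference of 0.29 (SE 0.0944, 95% interval 0.08 to 0.49) that did not pass (limma adjusted p = 0.189). Separation with KO above was thus found in 2 of the 8 tested members and in 1.86% of all tested genes.

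Papss1 had 562.6, 601.7, 620.4, 491.9 and 557.8 normalised reads in ARSL KO 1 to 5, against 509.9, 526.5, 439.8, 360.4 and 530.6 in WT 1 to 5. ARSL KO 4 was the 1 KO library within the WT range, and WT 3 and WT 4 were again the lowest libraries. The means were 566.9 ± 49.5 in KO and 473.5 ± 73 in WT (SD, n = 5 each), with a difference of 0.25 (SE 0.111, 95% interval 0.01 to 0.49; limma adjusted p = 0.335). Both synthases thus had intervals above 0 before adjustment, like Chst11, at an unadjusted p under 0.05 reached by 3 of 8 members and 13.5% of all tested genes. Without the 3 libraries that stand apart the differences were smaller for both, 0.18 for Papss2 (limma adjusted p = 0.27) and 0.15 for Papss1 (limma adjusted p = 0.394), whose unadjusted 95% interval of -0.02 to 0.32 then spanned 0. The KO ranges then lay above the WT ranges for both, at 2197 to 2540 against 1959 to 2162 normalised reads for Papss2 and 557.8 to 620.4 against 509.9 to 530.6 for Papss1. Separation of that kind, with KO above, held for 6.8% of all tested genes in that smaller set of libraries.

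**Figure D2:**
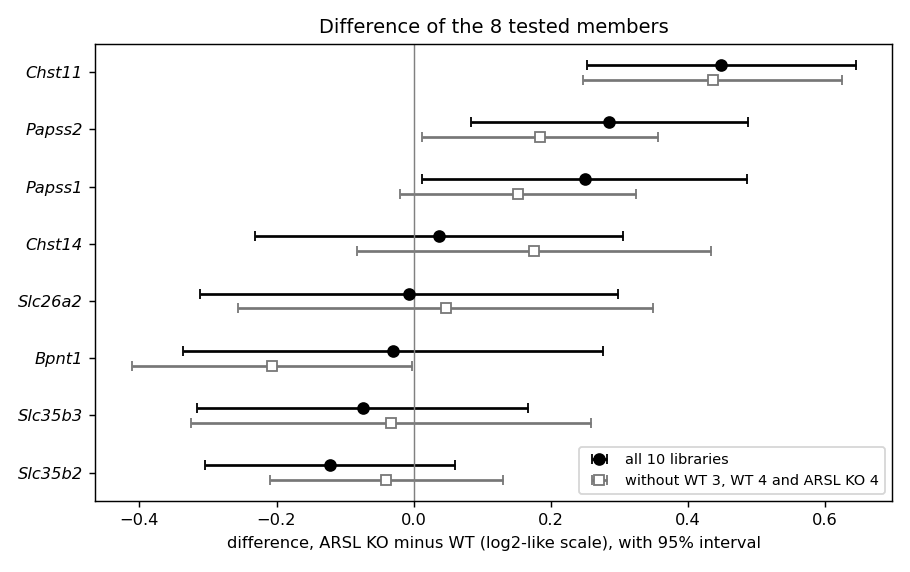
Difference ARSL KO minus WT on the log2-like scale (horizontal axis) with its unadjusted 95% interval for the 8 tested members, from all 10 libraries (filled circles) and without WT 3, WT 4 and ARSL KO 4 (open squares). The intervals of Chst11, Papss2 and Papss1 lie above 0 with all libraries, and without the 3 libraries that of Papss1 spans 0 and that of Bpnt1 lies just below 0.

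Slc26a2, the sulfate transporter of the plasma membrane, was a low-count gene in this table. It had 19.3, 21.7, 9.23, 31.2 and 23.3 normalised reads in ARSL KO 1 to 5, against 16.6, 11.6, 28.4, 25.8 and 22.2 in WT 1 to 5. The 3 libraries that stand apart were the 3 highest of the 10, with ARSL KO 4 first, and the groups overlapped fully. The difference was -0.01 (SE 0.143, 95% interval -0.31 to 0.30; limma adjusted p = 0.989), and its sign was not fixed, since it changed with median centring, quantile normalization and several omissions. With 10 to 32 reads per library, limma-voom on the reads gave a fold of 0.986 with a 95% interval of 0.597 to 1.63.

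Slc35b2, the main PAPS carrier of the Golgi, had 571.1, 549.6, 576.1, 565.1 and 530 normalised reads in ARSL KO 1 to 5, against 583.1, 580.7, 676.2, 668.3 and 556 in WT 1 to 5. The KO libraries were the tightest of any member, with a coefficient of variation of 3.35% where counting error alone gives 4.1%, and WT 3 and WT 4 were the highest libraries. The difference was -0.12 (SE 0.0852, 95% interval -0.30 to 0.06; limma adjusted p = 0.55), and -0.04 without the 3 libraries. Slc35b3, a second PAPS carrier, had 9.66, 13, 13.8, 13.7 and 5.38 normalised reads in ARSL KO 1 to 5, against 10.5, 8.71, 15.3, 15.3 and 13.7 in WT 1 to 5. WT 3 and WT 4 were again the highest, and the groups overlapped (difference -0.07, SE 0.113; limma adjusted p = 0.801).

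Bpnt1, a cytosolic phosphatase that degrades PAP, had 278.1, 221.6, 267.7, 211.8 and 278.9 normalised reads in ARSL KO 1 to 5, against 324.3, 329.1, 200.2, 187.4 and 270.6 in WT 1 to 5. The lowest libraries were WT 4, WT 3 and ARSL KO 4, in that order, so that the WT libraries spread on both sides of the KO libraries. With all libraries the difference was -0.03 (SE 0.143, 95% interval -0.34 to 0.28; limma adjusted p = 0.947). Without the 3 libraries it was -0.21 (SE 0.0995, unadjusted 95% interval -0.41 to -0.0022; limma adjusted p = 0.306), with means of 261.6 ± 27.1 in KO (SD, n = 4) and 308 ± 32.4 in WT (SD, n = 3).

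All 3 libraries that stand apart held the end of the order together for Slc26a2, Papss1 and Bpnt1, 3 of the 9 listed genes. WT 3 and WT 4 were the lowest 2 of the 10 libraries for Papss1, Papss2, Bpnt1 and Chst12 and the highest 2 for Slc35b2 and Slc35b3, while ARSL KO 4, counted from the highest, ranked 2 for Papss2, 7 for Slc35b2 and 5 for Slc35b3. Chst11 differed from this, with WT 3 in last place and WT 4 the highest of the WT libraries. The part of the state that sets these libraries apart in the differences of Papss1 and Papss2 was not tested; without the libraries the differences were smaller, as given above. Counting error was a large part of the spread for the 3 low genes, Slc26a2, Slc35b3 and Chst12, where it alone gives a coefficient of variation of 21.8%, 28.9% and 41.5%. For Papss2 it gives 2.15%, against 5.32% in KO and 10.2% in WT as measured, so that differences between libraries beyond counting made up most of it.

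Of the 8 tested members, 1 was called, 7 did not pass, 4 differences were positive and 4 negative, with a median of 0.02, against 0.01 over all tested genes. The share called over all tested genes was 1.14%. Without the 3 libraries the median of the members was 0.10, against 0.01 over all tested genes, and again 1 member was called, where 3.56% of all tested genes were. For the members that did not pass, limma-voom on the reads gave 95% intervals that bound the fold. That interval was 1.06 to 1.41 for Papss2, 1.01 to 1.44 for Papss1, 0.799 to 1.05 for Slc35b2, 0.762 to 1.25 for Bpnt1, 0.808 to 1.33 for Chst14 and 0.53 to 1.38 for Slc35b3. These intervals are not adjusted for the number of genes. A doubling or halving of any of these genes thus lay outside its interval, as it did for Slc26a2.

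A ratio of 2 genes within a library does not depend on how libraries are scaled. Of the 5 pairs planned, 4 could be computed, since Chst3 was not analysed here, and p-values are adjusted over the 4. Papss2 had 4.09, 3.87, 3.54, 4.79 and 4.55 reads per Papss1 read in ARSL KO 1 to 5, against 4.01, 4.11, 3.99, 4.69 and 3.69 in WT 1 to 5. The balance of the PAPS synthases overlapped fully between genotypes, with a log2 difference of 0.02 (exact permutation test, two-sided p = 0.849, adjusted 0.849). Chst11 had 3.54, 4.79, 5.98, 6.1 and 6.79 reads per Chst14 read in ARSL KO 1 to 5, against 5.37, 4.49, 3.37, 3.35 and 3.42 in WT 1 to 5. ARSL KO 3, 4 and 5 lay above all WT libraries, while ARSL KO 1 and 2 lay within the WT range. The log2 difference was 0.44 (exact permutation test, two-sided p = 0.0794, adjusted 0.317), and 0.24 without the 3 libraries (exact permutation p = 0.4). The ratio of Slc35b2 to Slc35b3 averaged 56.6 ± 24.6 in KO and 50.1 ± 10.9 in WT (SD, n = 5 each, exact permutation p = 0.778, adjusted 0.849). That of Chst11 to Chst12 averaged 90.2 ± 20.7 in KO and 112 ± 50.7 in WT (SD, n = 5 each, exact permutation p = 0.635, adjusted 0.849), and it rests on the few Chst12 reads. Its log2 difference of -0.15 turned to 0.37 without the 3 libraries (exact permutation p = 0.0857) and to 0.29 on the deposited values (exact permutation p = 0.0238), both unadjusted. The smallest two-sided p that the 252 assignments allow is 0.00794.

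**Figure D3:**
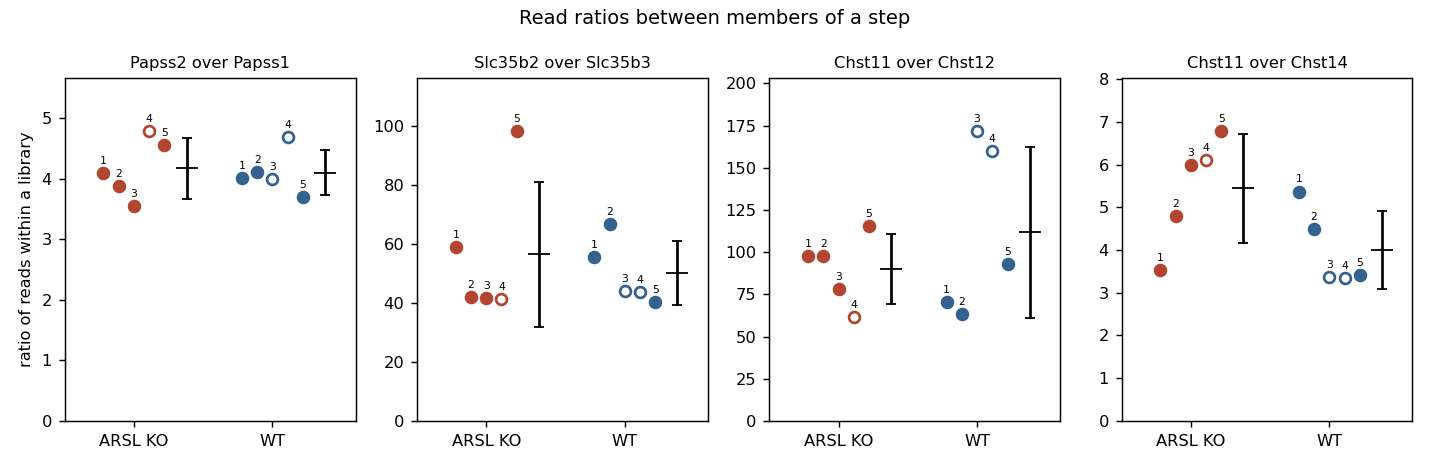
Ratio of reads of 2 genes within each library (vertical axis, from 0) for 4 pairs, in ARSL KO and WT libraries; points are libraries with their replicate number, open points are WT 3, WT 4 and ARSL KO 4, and bars are the mean ± SD of 5 libraries. All 4 pairs overlap between genotypes, and Chst11 over Chst14 is highest in ARSL KO 5, at 6.79.

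Around the members lay 94 further genes of sulfate handling, chain synthesis and chain carriers, in 10 lists drawn up from textbook knowledge. The table held 43 of them, and 37 were tested, with 1 called higher, 0 called lower and 36 not passing, where 1.14% of all tested genes were called and 0.261% called higher. Their median difference was -0.07, against 0.01 over all tested genes. Without the 3 libraries 2 were called higher and 2 lower, where 3.56% of all tested genes were called, and the median was 0.0019.

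On the supply side, the list of other sulfate transporters had 1 tested member, Slc26a6, an anion exchanger, at 10.8 ± 1.42 normalised reads in KO and 13.8 ± 5.15 in WT (SD, n = 5 each; limma adjusted p = 0.687). Of the 8 genes that make sulfate from cysteine, 0 were called and the median difference was -0.04. Tst, a mitochondrial thiosulfate sulfurtransferase, had the smallest p of that list, with 242.4 ± 27.1 normalised reads in KO and 196 ± 25.1 in WT (SD, n = 5 each; limma adjusted p = 0.264). For the removal of PAP or pyrophosphate, 2 of 3 genes were in the table, and 0 of these 2 were called. Both are pyrophosphatases, so the removal of PAP by genes other than Bpnt1 was not tested. Ppa1, the cytosolic pyrophosphatase, differed by -0.12 (SE 0.0936; limma adjusted p = 0.601), and Ppa2 by 0.04 (limma adjusted p = 0.893). On the supply side beyond the members 0 of 11 tested genes were called, where 1.14% of all tested genes were.

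On the side of the chains, the 4 other chondroitin and dermatan sulfotransferases, Chst7, Chst13, Chst15 and Ust, were not analysed here. Of 7 tested genes of chondroitin chain synthesis and epimerization 0 were called, with a median of -0.09. Chsy1, a chondroitin synthase, had 101.3 to 134.8 normalised reads in KO and 156.8 to 192.6 in WT, with no overlap, as 2.4% of all tested genes had with KO below, and a difference of -0.41 (SE 0.0966) that did not pass (limma adjusted p = 0.0566). Without the 3 libraries the Chsy1 difference was -0.42 and passed (limma adjusted p = 0.0309). Chpf and Chpf2, which also serve chain polymerization, had differences of 0.16 and 0.04, and their groups overlapped. Csgalnact1, Csgalnact2, Dse and Dsel had differences of -0.12, -0.17, -0.07 and -0.09, and their groups overlapped too.

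The other sulfotransferases also draw on PAPS. Of 4 tested heparan sulfotransferases 0 were called (median -0.08), and Hs6st1, which sulfates carbon 6 of glucosamine, differed by -0.21 (SE 0.118; limma adjusted p = 0.454). Of 3 other Golgi sulfotransferases 0 were called (median -0.13), and Chst10, which makes the HNK-1 epitope, differed by -0.13 (SE 0.102; limma adjusted p = 0.598). Sult5a1, the 1 tested cytosolic sulfotransferase, had 280.2 ± 40.1 normalised reads in KO and 358.5 ± 32.1 in WT (SD, n = 5 each; limma adjusted p = 0.181), and passed without the 3 libraries (difference -0.38, limma adjusted p = 0.0245). Over these 3 lists the 8 tested sulfotransferases had differences of -0.32 to -0.02, and 0 of the 8 passed with all libraries. Without the 3 libraries Hs2st1, Hs3st3a1 and Hs3st3b1 had differences of 0.02, 0.12 and 0.0019, and the median of the heparan list was 0.01.

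The list of sulfatases and activators had 6 tested members and 0 calls (median -0.02), with Sumf1, which activates sulfatases, at 197.6 ± 29.2 normalised reads in KO and 169.1 ± 8.73 in WT (SD, n = 5 each; limma adjusted p = 0.455). Among 5 tested core proteins that carry chondroitin sulfate, Cspg4 was called, at 132.7 to 233 normalised reads in KO and 12 to 23.9 in WT (difference 2.12, limma adjusted p = 3.34e-06), and 4 did not pass. Aggrecan, the main carrier in cartilage, had 4537 ± 1023 normalised reads of Acan in KO and 3886 ± 909 in WT (SD, n = 5 each; limma adjusted p = 0.616). Aggrecan and the collagen IX chain Col9a2 are named here after their values were seen; Col9a2 differed by -0.03 with all libraries (limma adjusted p = 0.968), and by 0.33 without the 3 libraries (limma adjusted p = 0.0483), so its direction turned with that choice.

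**Figure D4:**
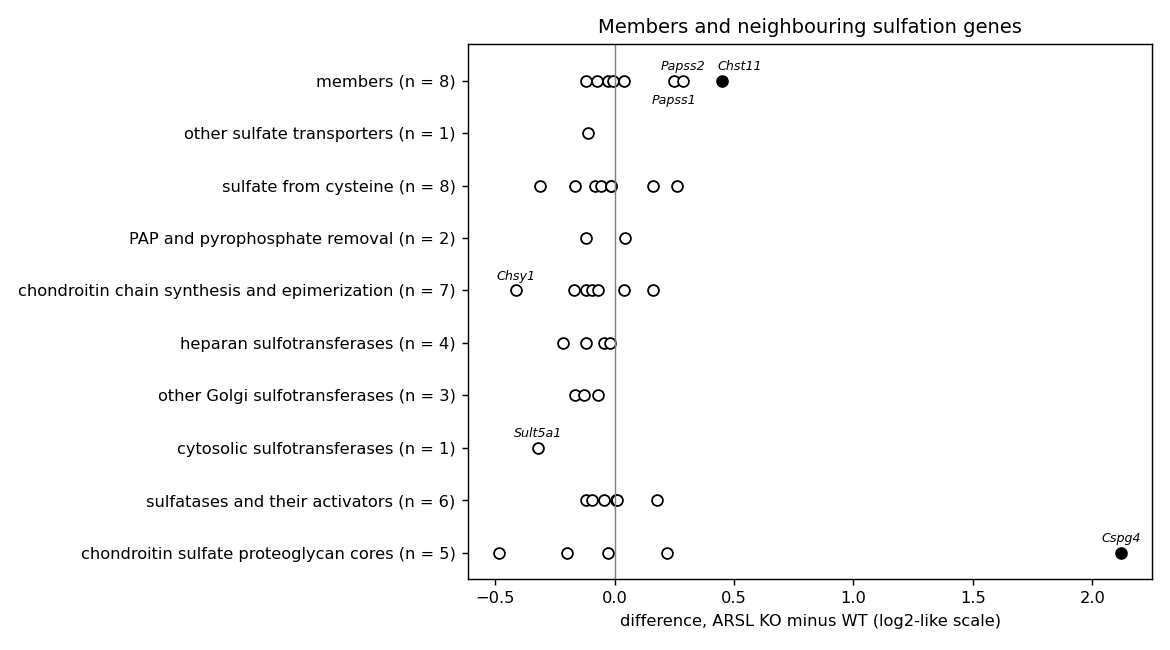
Difference ARSL KO minus WT on the log2-like scale (horizontal axis) of the 8 tested members and of the tested genes of 9 neighbouring lists; each point is a gene, and filled points passed the limma test at an adjusted p under 0.05. Chst11 (0.45) and Cspg4 (2.12) are filled, and Chsy1 (-0.41) and Sult5a1 (-0.32) are open.

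The profile of Chst11 over the 10 libraries was compared with that of every tested gene, each centred on its own mean, by the root mean square difference on the log2-like scale. The 5 closest genes with a symbol were Rchy1 (0.0845), Usp46 (0.089), Ptpn12 (0.0934), D2hgdh (0.0979) and Vdac3 (0.101). They were chosen for likeness to Chst11, so their KO values above the WT values follow from that choice. None of the 5 passed the limma test (adjusted p 0.0556 to 0.118). The level of Rchy1, a ubiquitin ligase, was 115.5 ± 9.2 normalised reads in KO and 79 ± 8.97 in WT (SD, n = 5 each). Of the members, Papss2 was closest to Chst11, at 0.166, with 118 tested genes closer than it, and Papss1 followed at 0.228. The remaining tested members lay at 0.315 to 0.354.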

How the data were processed

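Expression was measured by a commercial digital mRNA-seq service in 5 ARSL KO and 5 WT libraries, per the labels' protocols. The submitters' processing notes name bcl2fastq, STAR 2.7.11a, HTSeq and the rat build rn6; how values were variance-stabilized, how genes were filtered and whether strand was used is not stated in these sources, so reads of a gene and of one overlapping it on the other strand cannot be told apart. The authors deposited variance-stabilized log2-like values of 10184 genes, of which 813 had no symbol. The lowest value, 4.42, is that of 0 reads. A difference on this scale understates the change of genes with few reads.

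Normalised reads were obtained by inverting the closed form of the transformation, which put every value on a whole read (largest departure 8.5e-09), with at least 30 reads per listed gene over the 10 libraries. The tested set, 8431 genes, was those whose average exceeded the lowest value by 1 or more (about 10.7 normalised reads); the test was limma 3.58.1 in R 4.3.3 (two-sided, empirical Bayes with an intensity trend, Benjamini-Hochberg adjustment over all tested genes, calls at an adjusted p under 0.05). Ratios of members used log2 reads plus 0.5 and exact permutation tests over the libraries. The fits were tested on simulated reads drawn independently for each library. The simulation held no state shared by some libraries, such as that of WT 3, WT 4 and ARSL KO 4, so it does not cover that feature. Replicates of a group differed by more than sampling noise (chi-square per degree of freedom at least 1.85), and each counted as 1 sample. The members, lists, tests and alternatives, among them the omission of WT 3, WT 4 and ARSL KO 4, were chosen with earlier results of these data known. Named were all members, each called gene of a list or else the one with the smallest p, and the 5 genes closest in profile to the member with the smallest p. Tested genes named outside this rule, besides cell type markers, were the other genes of chain synthesis and epimerization, Hs2st1, Hs3st3a1, Hs3st3b1, Acan, Col9a2 and Ppa2. Alternatives were a replicate block, other filters, scalings, weights and variance settings, limma-voom and omitted libraries. Figures were drawn with matplotlib 3.10.9.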

Additional observations from a re-analysis of the deposited data

How the results depend on the processing

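Chst11 kept its direction under every setting run, and its call under all but the 6 omissions named in the report; the differences of Papss1 and Papss2 stayed positive and those of Slc35b2 and Slc35b3 negative, without a call, wherever they were tested. The number of genes called over the whole table was 96, but 60 with the stricter filter, which dropped Slc26a2 and Slc35b3, 219 with array quality weights and 300 without WT 3, WT 4 and ARSL KO 4; single omissions gave 33 to 101 genes and 0 to 1 member. Calls in the neighbouring lists numbered 2 with array quality weights and 4 without the 3 libraries. Slc26a2 differed by 0.0033 with median centring, 0.023 with quantile normalization, 0.067 with array quality weights and 0.047 without the 3 libraries. Over single omissions it differed by -0.085 to 0.098, Bpnt1 by -0.13 to 0.0496 and Chst14 by -0.045 to 0.11. Over single omissions the log2 ratio differed by -0.031 to 0.078 for Papss2 over Papss1, by -0.12 to 0.20 for Slc35b2 over Slc35b3, by -0.30 to 0.0049 for Chst11 over Chst12 and by 0.35 to 0.58 for Chst11 over Chst14 (unadjusted exact permutation p = 0.0317 to 0.159). Taken from the deposited values, which compress low genes, the differences were -0.048 for Slc35b2 over Slc35b3, 0.29 for Chst11 over Chst12 (unadjusted exact permutation p = 0.0238) and 0.41 for Chst11 over Chst14 (0.0397); without the 3 libraries Chst11 over Chst12 differed by 0.37. The cause of these changes was not tested.

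Same-numbered libraries deviated together with correlations of -0.0644, 0.0686, -0.293, 0.587 and 0.263 over the tested genes. The highest joined WT 4 and ARSL KO 4, which both stand apart, so these values do not settle whether the numbers pair the samples. With the replicate number as a block 136 genes and 1 member were called, the neighbouring lists held 1 call and Chst11 had a limma adjusted p of 0.0453; the log2 ratio of Chst11 over Chst14 had an exact sign-flip p of 0.188. Depth limits Slc26a2, Slc35b3 and Chst12, and planned ratios with Chst3 were not run.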

Other observations

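The 9 listed genes together took 0.193% to 0.212% of the reads in ARSL KO libraries, against 0.152% to 0.184% in WT libraries, with WT 3 (0.156%) and WT 4 (0.152%) the lowest. Papss2 alone made up 49.3% to 54.6% of these reads in KO and 47.7% to 52.1% in WT. Without Papss2 the other 8 genes took 0.0891% to 0.103% of the reads in KO and 0.0797% to 0.0883% in WT. These 8 still include Chst11, the called member, and the share without Chst11 was not computed. These shares are dominated by the abundant genes and were not tested.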
